A study of Mus musculus with 6 samples.

Results

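PD0325901 blocks the kinase Mek, and the comparison described here asked what the compound did in mouse embryonic stem cells (ESCs) that had been deprived of Erk. It set 1 treated library against 1 untreated library, 2 of the 6 libraries of the series, chosen by their labels. Both were made from cells labelled iErk1; Erk KO that had been grown without doxycycline (Dox) for 96 hours, and the treated cells received PD0325901 during the last 48 of those hours. The same line was also sequenced after 48 hours without Dox and with Dox, and wild-type KH2 ESCs were sequenced with PD0325901 for 48 hours and untreated, each as 1 library. All cells were KH2 ESCs of C57BL/6 x 129 background. Dox keeps an inducible Erk1 on in the engineered line, so the libraries without Dox come from cells losing it. The labels give neither the dose of the compound, nor the use of feeder cells, nor the number of clones behind the line.

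Mek phosphorylates the Erk kinases, the substrates for which it is best known. Active Erk switches on short-lived transcription factors and, as a brake on itself, Sprouty proteins and dual-specificity phosphatases. In mouse ESCs the Fgf4 and Erk route prepares cells to leave the naive state, and Mek inhibitors are used to hold cells there. Another textbook output of the pathway is the transcription factor AP-1, made of Fos and Jun proteins, which binds TGANTCA in the promoters of several secreted proteases.

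Of 11920 genes with enough reads to be tested, 160 were higher in the treated library, 1.34% of those tested, and 70 were lower, 0.587%. Genes of collagen, small proteoglycans and other extracellular matrix stood among the higher ones, while Erk feedback genes, secreted proteases of the stromelysin and collagenase type and a few developmental regulators stood among the lower ones. A gene was tested with at least 20 reads over both libraries and an RPKM (reads per kilobase of transcript per 1e6 reads of the library) of at least 1 in the higher one. It was called higher or lower where the log2 ratio of RPKM + 0.5 was at least 1 in size and the exact 95% interval of the ratio excluded 1. With 1 library per side there was no replicate check and no p-value, so ratios compare libraries and intervals cover counting error only. At least 4-fold changes on this scale numbered 26 among the higher genes and 14 among the lower ones. Just inside the limit stood genes such as Wnt4 (log2 ratio 1.03) and Gadd45a (−1.02). Just outside stood Ccnd2 (0.99), Plxdc2 (0.99), Spred1 (−0.998) and Dusp4 (−0.98).

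The totals were 9.83 and 9.95 times 1e6 reads in the treated and untreated libraries, and between 9.05 and 9.70 times 1e6 in the other 4. Mapk3, which encodes Erk1, had 9.18 RPKM in the treated and 6.75 RPKM in the untreated library, against 14.8 RPKM with Dox and 56.4 RPKM in untreated KH2 cells. It was not at 0 in either library. Reads covered 86.9% and 89.7% of the Mapk3 transcript in the treated and untreated libraries, and gene totals do not show which exons carry the reads. In the list of Ras, Raf, Mek and Erk cascade genes 0 of 19 tested members passed in either direction, with log2 ratios between −0.16 and 0.42. Of all tested genes 1.93% passed. The labelled cell type was checked by 10 ESC markers, which were all detected and summed to 3520 RPKM in the treated and 3666 RPKM in the untreated library. None of them passed.

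Because secreted proteases were among the lower genes, promoters of the matrix metalloproteinase genes Mmp3, Mmp10, Mmp12 and Mmp13 are shown. The promoter of Serpinb2, a lower inhibitor gene, is shown with them. Each is the 100 bases before a transcription start in RefSeq (GRCm38.p6, plus strand). Only starts that hold the AP-1 letters were taken, so the presence of the letters in these sequences follows from the choice. Capitals mark the AP-1 letters TGANTCA, which read the same on both strands; no other motif was searched.
Mmp3, chr9:7445722-7445821: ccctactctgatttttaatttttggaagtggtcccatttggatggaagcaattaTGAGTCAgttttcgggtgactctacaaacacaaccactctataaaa
Mmp10, chr9:7502242-7502341: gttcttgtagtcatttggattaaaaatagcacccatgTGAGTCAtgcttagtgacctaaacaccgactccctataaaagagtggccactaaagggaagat
Mmp12, chr9:7347274-7347373: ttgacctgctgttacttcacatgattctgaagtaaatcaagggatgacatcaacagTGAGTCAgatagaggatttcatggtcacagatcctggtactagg
Mmp13, chr9:7272414-7272513: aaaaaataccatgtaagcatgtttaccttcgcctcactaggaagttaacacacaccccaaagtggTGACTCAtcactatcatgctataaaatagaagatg
Serpinb2, chr1:107511323-107511422: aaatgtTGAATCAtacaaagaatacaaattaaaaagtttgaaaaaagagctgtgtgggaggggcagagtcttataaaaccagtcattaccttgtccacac
The first base of the motif lay 46 bases before the start in Mmp3, 63 in Mmp10, 44 in Mmp12, 35 in Mmp13 and 94 in Serpinb2. The table lists 2 starts for Mmp12 and for Serpinb2, and 1 start that holds the letters is shown for each. The distances for these genes therefore do not describe the other start. Within 250 bases before a start, the letters occurred in 9 of the 54 lower genes with a promoter in the table (16.7%), in 9 of 105 higher genes (8.57%) and in 494 of 9535 tested genes (5.18%). The 9 lower genes were Mmp3, Mmp10, Mmp12, Mmp13, Serpinb2, Tfpi2, Dhrs9, Psg28 and Sprr2h. Plau, another lower protease gene, was not among them. Of the 5 lower Mmp genes 4 had a promoter in the table, and all 4 held the letters. Mmp9, the other lower one, had no entry. These 4 genes lie close together on chr9 (bases 7272414 to 7502341) and are 4 of the 9 lower genes with the letters. Of 8 other tested Mmp genes 5 had a promoter in the table, and 0 of these held the letters. A match of letters describes the sequence and does not show that AP-1 binds there.

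**Figure D1:**
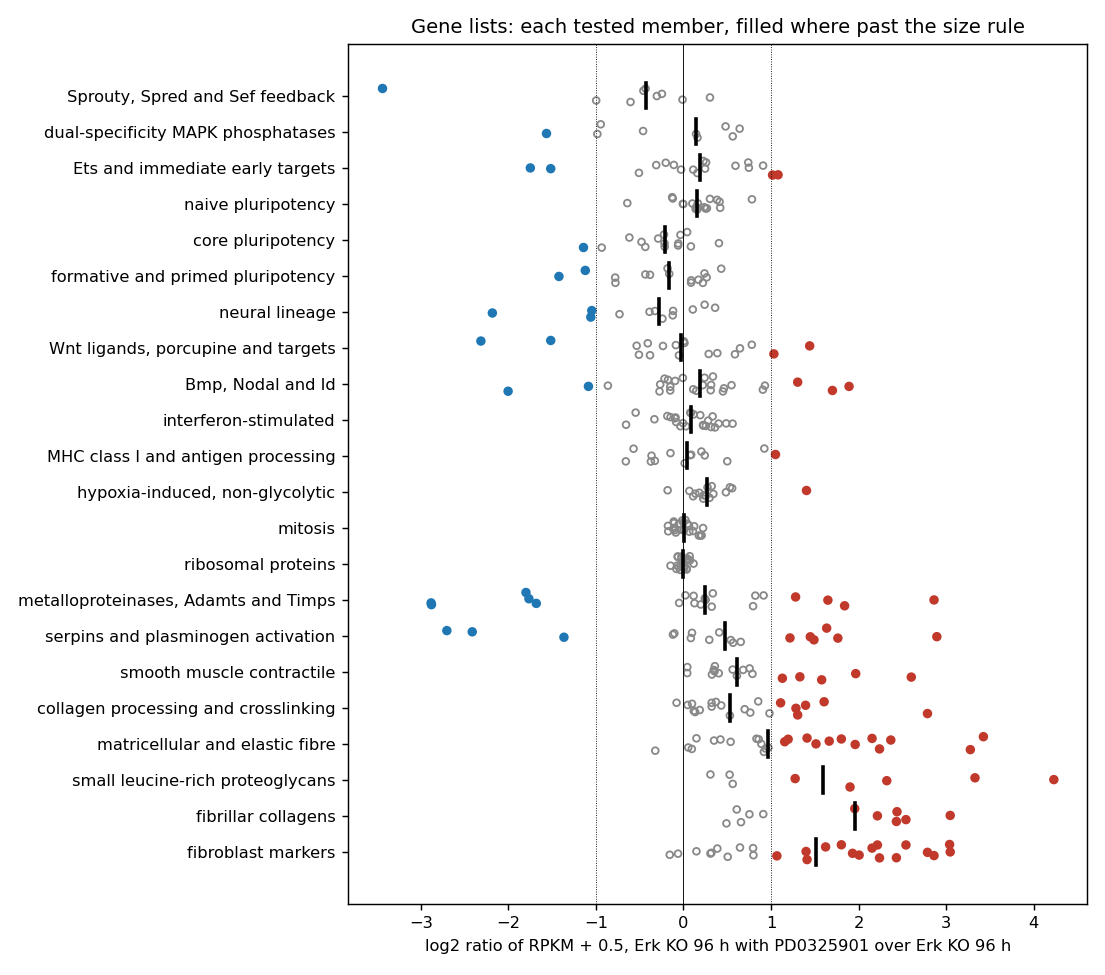
Log2 ratio of RPKM + 0.5, treated over untreated Erk KO cells at 96 hours, for each tested member of 22 gene lists (rows). Filled points passed the size rule (red higher, blue lower), open points did not, black bars are list medians and dotted lines mark the 2-fold limit. The matrix lists lie to the right with 0 lower genes, the protease lists hold genes on both sides, and ribosomal protein and mitosis genes stay near 0.

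Some Erk feedback genes and targets were lower with the Mek inhibitor in cells already without Dox. Spry4, which restrains receptor tyrosine kinase signalling, had 0.132 RPKM (6 reads) in the treated and 6.41 RPKM (294 reads) in the untreated library. Dusp6, the phosphatase that removes phosphate from Erk, had 4.27 and 13.7 RPKM in the treated and untreated libraries. The Ets factor gene Etv4 had 0.914 and 4.26 RPKM, and Myc, the growth-promoting transcription factor, had 4.62 and 14.2 RPKM, again treated and untreated. In the list of Sprouty, Spred and Sef genes 1 of 9 tested members was lower and 0 higher (median log2 ratio −0.43, against 0.01 over all genes tested), and in the list of dual-specificity phosphatases 1 of 9 was lower and 0 higher (median 0.14). The Ets and immediate early list gave 2 lower genes, Etv4 and Myc, and 2 higher genes, both of the Fos family, among 18 (median 0.19). Fosl2 had 4.89 RPKM in the treated and 2.05 RPKM in the untreated library, and 2.21 RPKM at 48 hours, against which it stayed just under the limit (2.22-fold higher, 1.79 to 2.76). Fosb had 4.71 and 2.07 RPKM treated and untreated, but 4.03 RPKM at 48 hours and 9.64 RPKM with Dox. Against the 48 hour library Fosb was 1.17-fold higher with an interval from 0.932 to 1.46, so its call rests on the untreated 96 hour library. Other AP-1 genes did not pass, with Fos at a log2 ratio of 0.75, Jun at 0.74 and Junb at −0.20. Etv5 (0.11), Spry2 (−0.46) and Egr1 (0.59) did not pass either.

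The other libraries of the line place these values. With Dox the 4 lower targets stood far higher, at 23.9 RPKM for Spry4, 53.6 for Dusp6, 8.14 for Etv4 and 31.9 for Myc. After 48 hours without Dox they stood at 1.54 RPKM for Spry4, 6.45 for Dusp6, 1.19 for Etv4 and 5.84 for Myc, and all 4 passed as lower than with Dox. The 48 hour library was thus already low for each of them. In the untreated 96 hour library all 4 were higher again than at 48 hours, by 4.15-fold for Spry4 (interval 3.19 to 5.48), 2.13-fold for Dusp6 (1.77 to 2.56), 3.57-fold for Etv4 (2.32 to 5.69) and 2.42-fold for Myc (1.98 to 2.98). Against the 48 hour library the treated one was 11.7-fold lower for Spry4 (5.09 to 32.8) and 1.51-fold lower for Dusp6 (1.19 to 1.93). For Etv4 it was 1.30-fold lower with an interval from 0.709 to 2.42, and for Myc 1.26-fold lower with an interval from 0.975 to 1.64, and both intervals hold 1. Treated cells at 96 hours thus had Etv4 and Myc near their 48 hour levels and Spry4 below it.

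**Figure D2:**
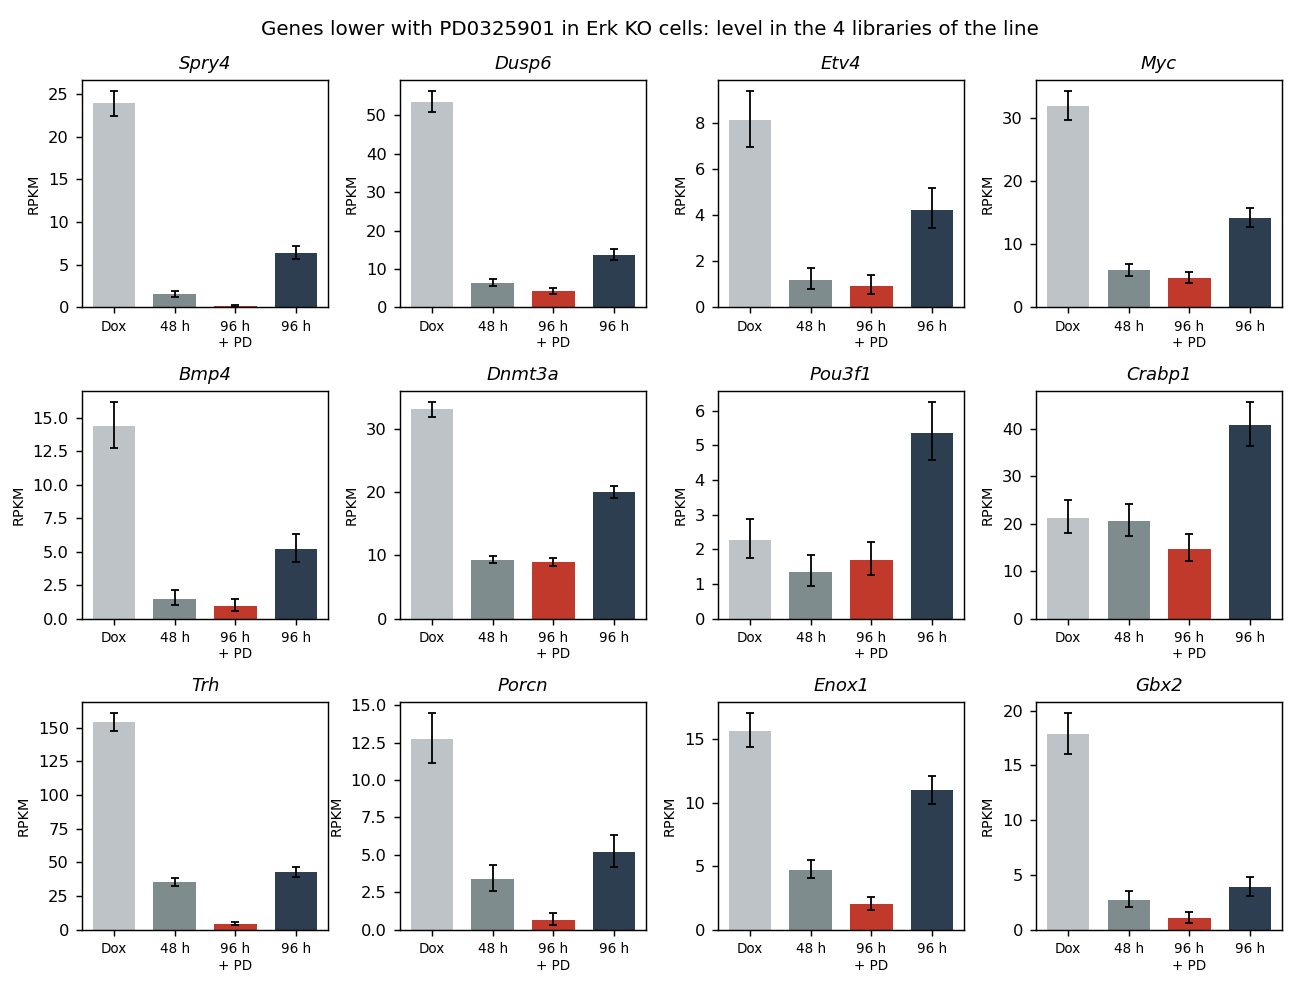
Level (RPKM) of 12 genes that were lower with PD0325901, in the 4 libraries of the Erk KO line: with Dox, 48 hours without Dox, 96 hours without Dox with PD0325901, and 96 hours without Dox. Bars are single libraries and whiskers exact 95% Poisson counting intervals. Spry4, Etv4, Myc and Bmp4 are high with Dox, low at 48 hours and partly higher again at 96 hours without the compound, Trh and Porcn differ less between the untreated 48 and 96 hour libraries, and each gene shown except Pou3f1 is lowest in the treated library.

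Among developmental regulators, Dnmt3a and Bmp4 had the same order of levels over the 4 libraries as these targets, and Pou3f1 and Crabp1 did not. Dnmt3a, a de novo DNA methyltransferase, had 8.92 RPKM in the treated and 20.01 RPKM in the untreated library, against 9.34 RPKM at 48 hours and 33.1 RPKM with Dox. Bmp4, a ligand of the Bmp receptors, had 0.918 and 5.19 RPKM in the treated and untreated libraries, 1.499 RPKM at 48 hours and 14.4 RPKM with Dox. Against the 48 hour library the intervals of both genes hold 1. Pou3f1, a POU factor of formative and neural cells, had 1.69 and 5.37 RPKM treated and untreated but only 1.33 RPKM at 48 hours and 2.26 RPKM with Dox, so its ratio turns positive (0.25) against the 48 hour library. Crabp1, which binds retinoic acid, had 14.7 and 40.8 RPKM treated and untreated, against 20.6 RPKM at 48 hours and 21.2 RPKM with Dox, so its untreated 96 hour level was the high one of the line.

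For some lower genes the untreated 48 and 96 hour libraries differed little. Trh, the precursor of thyrotropin-releasing hormone, had 4.27 RPKM in the treated and 42.7 RPKM in the untreated library, and 35.4 RPKM at 48 hours. Porcn, the acyltransferase that lipid-modifies Wnt proteins, had 0.644 and 5.19 RPKM treated and untreated, and 3.37 RPKM at 48 hours. Il1rl1, the receptor for interleukin 33, had 0.921 and 5.46 RPKM, and 6.51 RPKM at 48 hours. For these 3 genes the untreated 96 and 48 hour libraries differed by less than 2-fold. Soga3 had 1 read in the treated and 77 in the untreated library, a ratio of 76.0-fold lower with an interval from 13.2 to 3042. Areg, an Egf receptor ligand, had 3 reads in the treated and 32 in the untreated library, and Itga2, a collagen-binding integrin subunit, 4 and 71 reads. Areg was the 1 lower gene among 22 receptor tyrosine kinases and ligands, with 0 higher (median 0.18). None of the 13 tested Eph receptors and ephrins passed, where 1.93% of all tested genes did. Gbx2, a homeobox target of Lif signalling, had 1.05 and 3.87 RPKM, and the imprinted retroviral-derived gene Peg10 had 13.4 and 31.1 RPKM, each treated and untreated.

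Over all 70 lower genes the treated library was below all 3 untreated libraries of the line for 54 (77.1%), against 2607 of 11920 tested genes (21.9%); the choice of genes already fixes the side of 1 of the 3. The interval of the ratio against the 48 hour library lay below 1 for 36 of the 70 (51.4%), against 2343 of 11920 tested genes (19.7%), and held 1 for the other 34. That ratio uses the treated library by which the 70 genes were chosen, so the count is a description. The comparison of 48 hours without Dox with Dox shares no library with the treated pair. Of the 70 lower genes 30 were lower there too, 42.9% of them and 12.4% of the 242 genes lower in that comparison, which called 2.13% of its genes lower. Another 5 of the 70 were higher there. Of the 160 higher genes 5 were higher there (3.12%, where 2.77% of all its genes were) and 1 was lower.

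Secreted proteases and their inhibitors went in both directions. Mmp3 (stromelysin 1) had 2.08 RPKM in the treated and 18.5 RPKM in the untreated library, 8.89-fold lower (6.35 to 12.8). Mmp10 (stromelysin 2) had 1.42 and 13.7 RPKM, 9.63-fold lower (6.32 to 15.3). Mmp13 (a collagenase) had 2.17 and 8.79 RPKM, Mmp9 (gelatinase B) 1.66 and 6.43 RPKM, and Mmp12 (macrophage elastase) 2 and 50 reads, each treated and untreated. All 4 of the Mmp genes with promoters shown are in this group. Their levels in the other libraries of the line differed: Mmp3 had 1.20 RPKM with Dox and 7.99 RPKM at 48 hours, so it was higher without Dox, and the treated library stood 3.84-fold below 48 hours (2.67 to 5.64). Mmp9 had 3.90 RPKM with Dox and 3.46 RPKM at 48 hours. In the list of metalloproteinases, Adamts proteases and Timps, 5 of 21 tested members were lower and 4 higher (median 0.24). Timp3, an inhibitor of metalloproteinases held in the matrix, had 64.6 RPKM in the treated and 8.46 RPKM in the untreated library, and Timp2 47.5 and 19.2 RPKM. The aggrecanase gene Adamts5 had 117 reads in the treated and 4 in the untreated library, and Adamts1 191 and 45 reads. Mmp2 (0.80) and Mmp14 (0.82) were below the limit.

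The serpin and plasminogen list had 6 higher and 3 lower genes of 18 (median 0.47). Serpinb2, an intracellular inhibitor of plasminogen activators, had 1.11 RPKM in the treated and 8.11 RPKM in the untreated library. Tfpi2, a Kunitz-type inhibitor, had 2 reads in the treated and 55 in the untreated library, and Plau, the urokinase plasminogen activator, had 2.39 and 6.95 RPKM. The tissue activator Plat had 6.99 and 2.72 RPKM and the serine protease Prss23 31.5 and 3.80 RPKM, treated and untreated. The 2 activators therefore moved in opposite directions. Serpinf1, Ctsk and Htra3 were also among the higher genes.

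**Figure D3:**
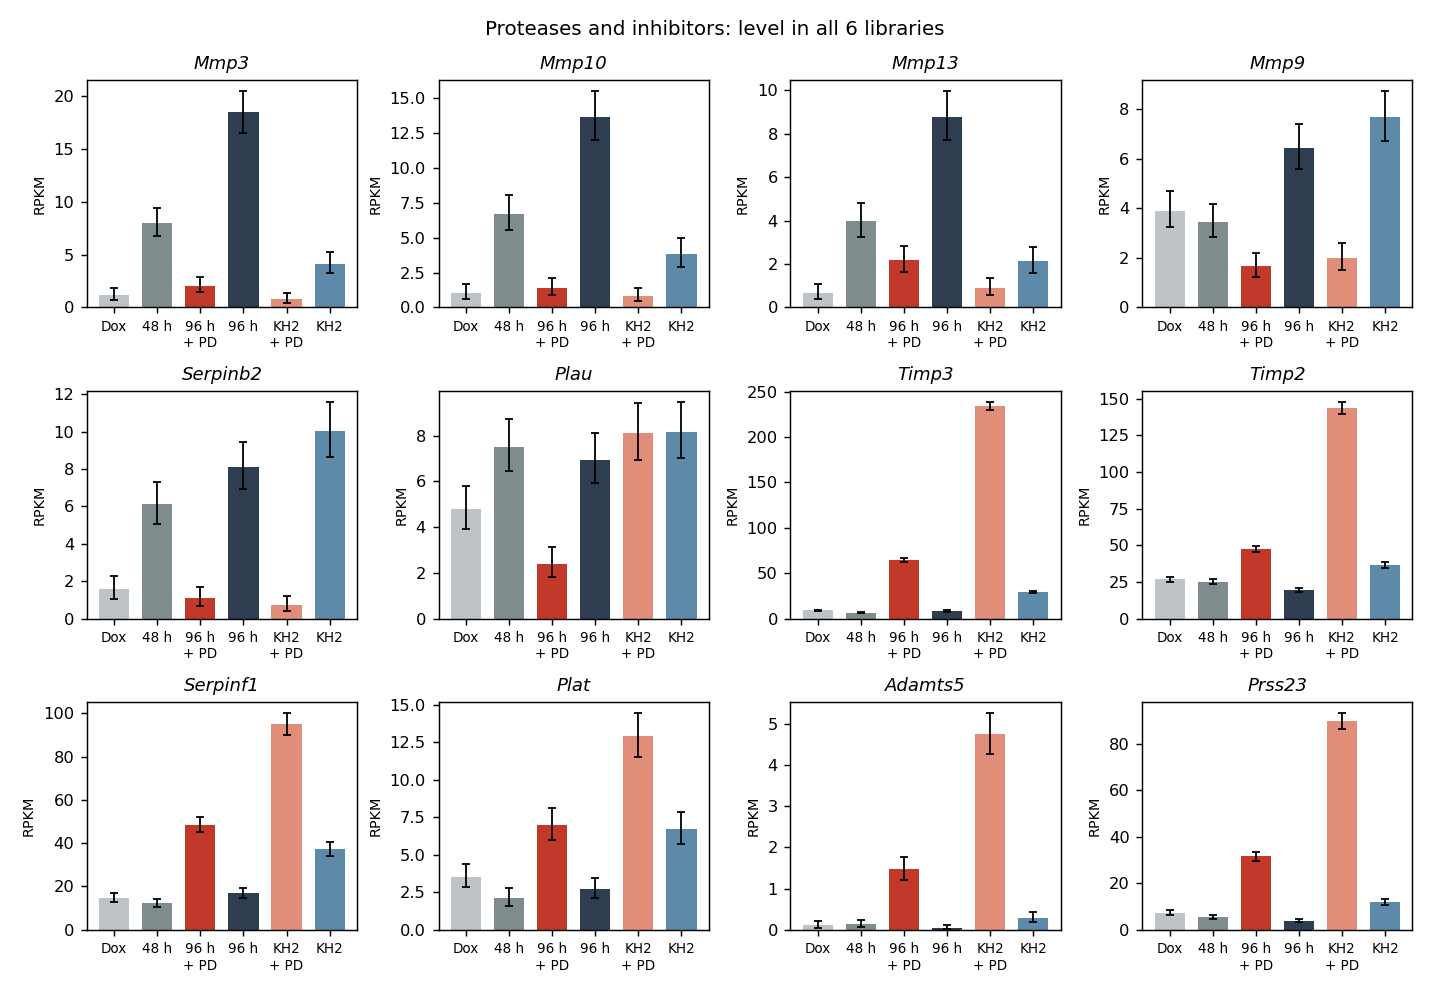
Level (RPKM) of 12 protease and inhibitor genes in all 6 libraries: Erk KO line with Dox, 48 hours without Dox, 96 hours with PD0325901, 96 hours without it, KH2 with PD0325901 and KH2. Bars are single libraries and whiskers exact 95% Poisson counting intervals. Mmp3, Mmp10, Mmp13 and Serpinb2 are low and Timp3, Serpinf1, Prss23 and Adamts5 high in both treated libraries relative to their untreated partners, while Plau is low in the treated Erk KO library and level within KH2.

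Extracellular matrix genes made up a large block of the higher genes. Over 7 lists of matrix, contractile and fibroblast genes together, 44 of 113 tested genes were higher and 0 lower. Of all tested genes 1.34% were higher and 0.587% lower. The lists were chosen with earlier results of these data known, so the count is a description. It leaves 116 of the 160 higher genes outside those lists. Fibrillar collagens gave 6 higher of 11 (median 1.96), and small leucine-rich proteoglycans, which bind and space collagen fibrils, 5 of 8 (median 1.59). Col1a1, the main chain of type I collagen, had 218 RPKM in the treated and 25.9 RPKM in the untreated library, against 17.7 RPKM at 48 hours and 17.2 RPKM with Dox. Prelp, which anchors collagen to basement membrane, had 482 reads in the treated and 9 in the untreated library. Genes at a few reads in the untreated cells became readily detected with the compound. Aspn had 145 and 4 reads, Fmod 81 and 5 reads and Ogn 49 and 4 reads, treated and untreated. Bgn, already abundant, had 130 and 53.2 RPKM, and Dcn (log2 ratio 0.31) did not pass.

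Genes that process collagen followed in part, with 6 of 21 higher and 0 lower (median 0.53). Lox, the enzyme that crosslinks collagen and elastin, had 161 RPKM in the treated and 22.9 RPKM in the untreated library, and 10.3 RPKM at 48 hours. Its relatives Loxl2 (log2 ratio 1.61) and Loxl1 (1.28) passed, and Loxl3 (0.70) and Loxl4 (0.32) did not. The collagen prolyl hydroxylase gene P4ha2 (1.40), the procollagen protease Bmp1 (1.30) and the collagen chaperone Serpinh1 (1.11) were higher, while the lysyl hydroxylases Plod1 (0.32), Plod2 (0.37) and Plod3 (0.43) did not pass. Other collagens and basement membrane genes gave 6 higher of 19 (median 0.44), namely the type VI chains Col6a1 (2.01), Col6a2 (1.93) and Col6a3 (1.62), with Col8a1 (1.67), Lama4 (1.55) and Col4a5 (1.54). The laminin genes of early embryos, Lama1 (0.05), Lamb1 (0.26) and Lamc1 (0.28), did not pass.

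Matricellular and elastic fibre genes gave 12 higher of 25 and 0 lower (median 0.97). Ccn5, of the Ccn family of matrix signalling proteins, had 105 reads in the treated and 3 in the untreated library, and its relatives Ccn4 (log2 ratio 2.37) and Ccn2 (1.51) also passed, whereas Ccn1 (0.89) did not. Postn, a matrix protein of fibroblasts and healing wounds, had 58.7 and 12.0 RPKM treated and untreated, and Fbn1, the microfibril protein fibrillin 1, had 9.32 and 1.70 RPKM. Thbs1 (1.80), Thbs2 (1.67) and Fbln5 (1.96) were higher as well. Fn1 (0.54), Tnc (0.10) and Spp1 (−0.32), abundant matrix genes of these cells, did not pass. Tgfb2, a ligand that drives matrix synthesis in many cells, had 118 reads in the treated and 15 in the untreated library, while Tgfb1 (−0.18) did not pass.

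Of 26 tested fibroblast markers 16 were higher and 0 lower (median 1.52, range −0.16 to 3.05). The 29 markers analysed summed to 1507 RPKM in the treated and 545.7 RPKM in the untreated library, 506.5 RPKM at 48 hours and 491.3 RPKM with Dox, a 2.76-fold higher sum with the compound. Within the list the receptors Pdgfra (−0.16) and Pdgfrb (0.65), the transcription factors Twist1 (−0.06) and Twist2 (0.51), and Vim (0.32), Fbln1 (0.15) and S100a4 (0.80) did not pass. Meox2 had no read in the treated library, and Lum and Fap had too few reads to be tested. Many of the matrix genes above are also on this list. In these bulk libraries more cells of a type and more RNA per cell cannot be told apart, and the part of fibroblasts in the matrix genes was not tested. Macrophage markers summed to 47.4 and 51.3 RPKM and endothelial markers to 27.7 and 28.3 RPKM, treated and untreated, with Emcn at 0 in both.

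Smooth muscle contractile genes gave 5 higher of 17 and 0 lower (median 0.61). Against the 48 hour library 4 of 18 were higher and 0 lower (median 0.69), so the list changed little with the reference. In untreated cells 2 of its genes, Acta2 and Tagln, were lower at 96 than at 48 hours, and 0 were higher. Acta2, smooth muscle actin, had 84.2 RPKM in the treated and 13.4 RPKM in the untreated library, against 35.6 RPKM at 48 hours and 31.7 RPKM with Dox. Tagln had 63.8 and 21.03 RPKM treated and untreated, and 44.1 RPKM at 48 hours. Both genes had their lowest level of the line in the untreated 96 hour library. Against the 48 hour library Acta2 was 2.37-fold higher in the treated one (2.19 to 2.56), in place of 6.26-fold (5.59 to 7.04), and Tagln 1.45-fold higher (1.31 to 1.60), in place of 3.04-fold. Igf2, an imprinted growth factor, showed the extreme case, with 26.1 and 9.33 RPKM treated and untreated but 28.8 RPKM at 48 hours and 24.8 RPKM with Dox. Its imprinted neighbour H19 did not share this, with 24.5 and 5.19 RPKM treated and untreated, 4.73 RPKM at 48 hours and 5.97 RPKM with Dox. Other higher genes of the Igf list were Igfbp7 (log2 ratio 1.48) and Pappa (1.86), a protease of Igf-binding proteins, so 4 of 14 were higher and 0 lower (median 0.19).

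**Figure D4:**
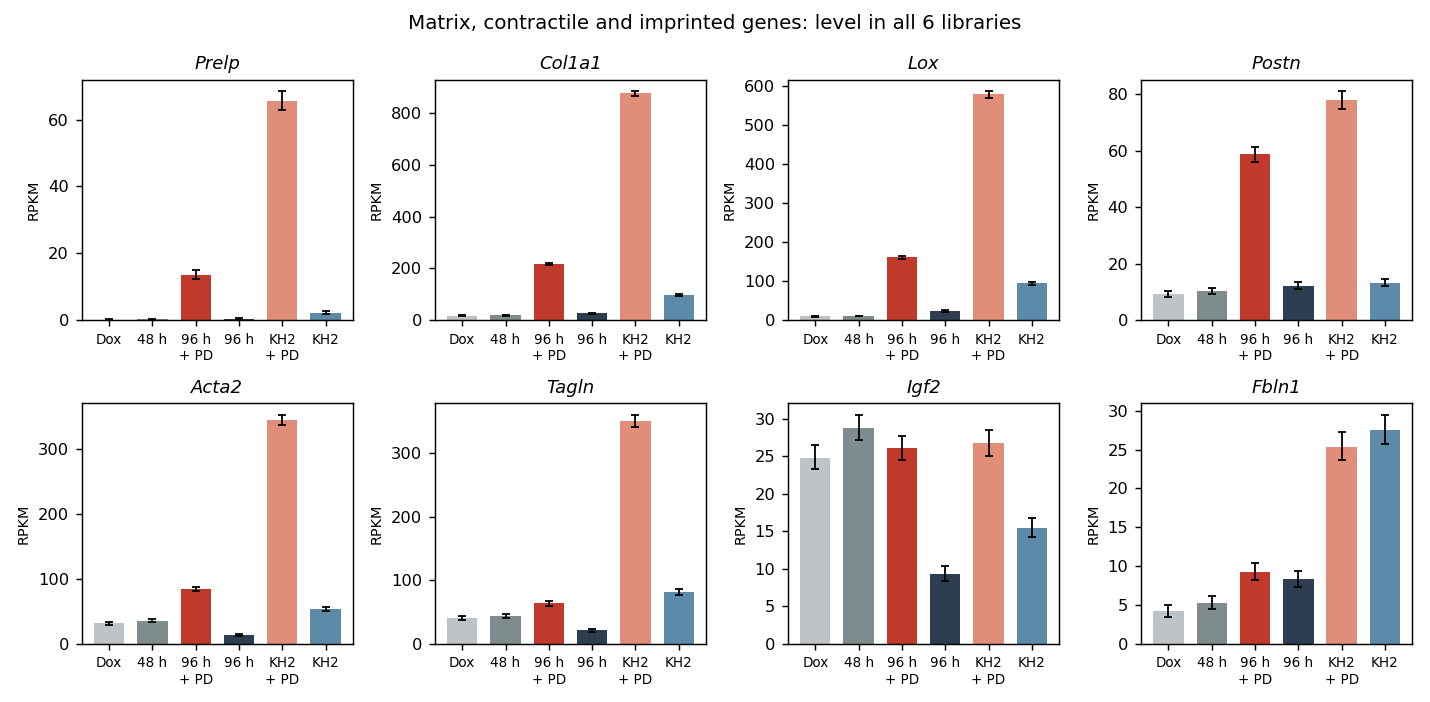
Level (RPKM) of 8 matrix, contractile and imprinted genes in all 6 libraries, ordered as with Dox, 48 hours, 96 hours with PD0325901, 96 hours, KH2 with PD0325901 and KH2; bars are single libraries and whiskers exact 95% Poisson counting intervals. Prelp, Col1a1, Lox and Postn are higher in the treated library of each pair, Acta2, Tagln and Igf2 are low in the untreated 96 hour library, and Fbln1 is level within each pair.

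Signalling and inflammatory genes gave smaller groups. In the Bmp, Nodal and Id list 3 of 26 were higher (Tgfb2, Fstl1 and Bmp1) and 2 lower, Bmp4 and the Bmp antagonist Grem1 (median 0.18). In the Wnt list Wls, which carries Wnt proteins to the surface (log2 ratio 1.44), and Wnt4 were higher, and Porcn and Myc lower, of 18 (median −0.02). Wnt secretion genes thus appear on both sides. In the LIF and Stat3 list the receptor gene Osmr (1.45) and Il6 were higher and Gbx2 lower of 17. Il6 had 50 reads in the treated and 10 in the untreated library. Secreted inflammatory genes gave 5 higher (Ptx3, Ccl5, Il6, Saa3 and Cxcl14) and 1 lower (Il1rl1) of 18 (median 0.48). Saa3, an acute phase protein, had 67.8 and 24.4 RPKM, and Ccl5, a chemokine, 19 and 1 reads, treated and untreated. Nos2, the inducible nitric oxide synthase, had 6.42 and 0.957 RPKM treated and untreated but 0.0517 RPKM at 48 hours.

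Naive pluripotency genes stayed within the limit, while the formative and neural lists held some lower genes. None of the 18 naive pluripotency genes passed (median 0.16). Of all tested genes 1.93% passed, so a count of 0 does not set a list of this size apart. Against the 48 hour library 2 of the 18 were lower and 0 higher (median −0.21). In untreated cells 3 of them were lower at 96 than at 48 hours and 0 higher. Nanog had 387 RPKM in the treated and 296 RPKM in the untreated library, and 397 RPKM at 48 hours, so the treated level lay near that of 48 hours. Pou3f1 and Dnmt3a were the 2 lower genes of 15 formative and primed genes (median −0.16), with Dnmt3b at −0.78 and Otx2 at −0.18. Against the 48 hour library 1 of 15 was higher and 1 lower, and the median turned positive (0.17). The neural list had 3 lower genes of 12, Enox1, Nefm and Nnat. Against the 48 hour library 6 of 13 tested neural genes were lower and 0 higher (median −0.98). Nefm had 23 reads in the treated and 66 in the untreated library but 11 at 48 hours, so its direction turns with the untreated library chosen. Enox1 had 72 reads in the treated and 395 in the untreated library. In the short mesoderm list Gsc, a homeobox gene of the organizer, was higher on 23 and 8 reads, but it had 21 reads at 48 hours, against which the ratio was 1.08-fold (0.572 to 2.05). Its call thus rests on the untreated 96 hour library. In the other lists 0 of 11 primitive endoderm and 0 of 12 trophoblast genes passed.

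No gene passed in the lists of G1 to S and replication (30 tested), mitosis (24), CDK inhibitors (8), ribosomal proteins (24), cholesterol synthesis (21), glycolysis (22), heat shock (14) and telomeres (17). Of all tested genes 1.93% passed, so counts of 0 do not set lists of these sizes apart. Their medians lay between −0.11 and 0.19. Cyclin D1 (Ccnd1, log2 ratio −0.51) and the CDK inhibitor Cdkn1a (0.78) did not pass, and Gadd45a was the 1 lower gene of 25 p53 targets. Interferon-stimulated genes gave 0 of 25 in either direction (median 0.09), and genes of MHC class I 1 higher, H2-T23, of 14. Both lists differed with time in the untreated cells, where 19 of 26 and 10 of 15 listed genes were higher at 96 than at 48 hours. Of all genes tested in that comparison 4.55% were higher. Of the hypoxia-induced genes 10 of 17 listed were higher at 96 than at 48 hours in untreated cells. With the compound 1 of 16 tested, P4ha2, was higher. With the 48 hour library as reference, 19 interferon-stimulated, 10 MHC class I and 13 hypoxia-induced genes were higher in the treated library. Over all genes 707 were then higher (5.99%) and 83 lower (0.704%), including 120 of the 160 and 20 of the 70. Most of the 707 lie outside these lists.

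The remaining lists held few passing genes. Of 14 tested Hox genes 2 were higher, Hoxc9 (log2 ratio 1.31) and Hoxc8 (1.30), and 0 lower, with a median of 0.45. Against the 48 hour library neither Hoxc9 (0.84) nor Hoxc8 (0.52) passed, while both passed against the library with Dox (1.18 and 1.01). The histone gene H1f2 (1.49), the folate enzyme gene Aldh1l2 (391 reads treated, 120 untreated), the complement-related gene C1qtnf6 (1.33) and the enkephalin precursor gene Penk (1.57) were the only higher members of their lists. Robo4 (−1.09), on the endothelial list, and Rab25 (−1.19), on the epithelial list, were the only lower members of theirs, though Robo4 had 13 reads in the treated library, 49 in the untreated one and 11 at 48 hours. None of 19 germline genes, 15 genes of other MAP kinase cascades or 22 Bcl2 family and caspase genes passed, where 1.93% of all tested genes did. Several genes outside the lists ranked high. The pericyte and stromal surface gene Cd248 had 27.5 RPKM in the treated and 3.66 RPKM in the untreated library, and the collagen receptor gene Itga11 had 6.78 and 1.34 RPKM. Stmn4, a microtubule-binding stathmin, had 64 reads in the treated and 2 in the untreated library. Among the lowest genes outside the lists, the lysosomal mannosidase gene Manba had 3.67 and 16.6 RPKM, treated and untreated, and 7.32 RPKM at 48 hours. The amino acid transporter gene Slc7a7 had 5.86 and 18.1 RPKM, and 7.11 RPKM at 48 hours, and the transcription factor gene Zfp423 had 48 reads in the treated and 210 in the untreated library.

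The treated and untreated KH2 libraries share no library with the Erk KO pair and give the same 48 hours of compound in wild-type cells. In KH2 cells 3.86% of tested genes were higher and 1.22% lower. The 133 genes higher in both pairs were 83.1% of those higher in Erk KO cells and 27.0% of those higher in KH2 cells, and the 35 lower in both were 50% and 22.4%. None of the 230 genes passed the opposite way. Fibroblast markers had a median log2 ratio of 1.52 in Erk KO and 1.73 in KH2 cells, and fibrillar collagens 1.96 and 2.37. Naive pluripotency genes had medians of 0.16 in Erk KO and 0.60 in KH2 cells, and 13 of 18 had the lower ratio in Erk KO cells, against 5581 of 11668 genes tested in both pairs. Formative and primed genes had medians of −0.16 and −0.89, with 12 of 15 less negative in Erk KO cells. Contractile genes had medians of 0.61 and 1.32, and 16 of 17 had the lower ratio in Erk KO cells. Ribosomal protein genes, none of which passed in either pair, had medians of −0.0002 and −0.19. Of these, 24 of 24 had the higher ratio in Erk KO cells, so a 1-sided count also arose without passing genes. What lies behind these counts was not tested. Plau (log2 ratio −1.37 in Erk KO and −0.01 in KH2 cells) and Grem1 (−1.09 and 0.16) passed in the Erk KO pair and not in the KH2 pair, and the difference itself did not pass the test given with the 6-library fit.

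**Figure D5:**
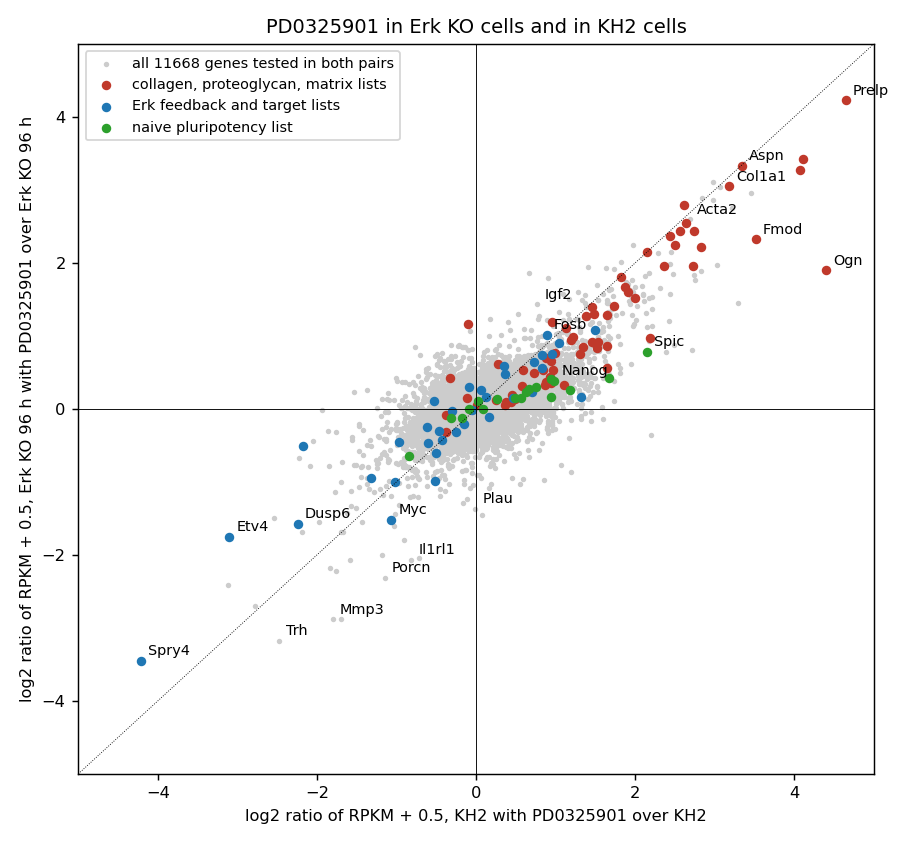
Log2 ratio of RPKM + 0.5 with PD0325901 in the Erk KO pair (vertical axis) against the KH2 pair (horizontal axis) for 11668 genes tested in both, with matrix, Erk target and naive pluripotency lists coloured and the dotted line marking equal ratios. Matrix genes lie at the upper right and Spry4, Etv4 and Dusp6 at the lower left, while Plau lies near 0 for KH2 only.

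To test the compound in cells without Dox alone, the untreated 48 and 96 hour libraries were taken as 1 state; over the 6 libraries this gives 1 residual degree of freedom and puts the time difference into the spread. With edgeR's quasi-likelihood test and Benjamini-Hochberg adjustment, PD0325901 in cells without Dox gave 59 higher and 6 lower genes of 15103 (0.391% and 0.0397%), with 535 at an unadjusted p under 0.05. All 65 also passed the size rule in the same direction, which uses the same treated and untreated 96 hour libraries. The 6 lower genes were Trh (log2 fold change −3.25, SE 0.31, adjusted p 0.000165), Il1rl1 (−2.77, SE 0.43, adjusted p 0.00758), Porcn, Serpinb2, Soga3 and Spry4 (−4.91, SE 0.83, adjusted p 0.0149). Prelp (5.83, SE 0.34, adjusted p 3.28e-06), Timp3 (3.04, SE 0.24, adjusted p 8.61e-05) and Col1a1 (3.27, SE 0.28, adjusted p 8.68e-05) were among the higher genes. Dusp6 (adjusted p 0.437), Etv4 (0.969) and Myc (0.945), which stood apart between the untreated 48 and 96 hour libraries, did not pass. Mmp3 (0.0651) and Mmp10 (0.0605) did not pass either. Of the genes called, 27 higher and 2 lower, Trh and Il1rl1, were called in all 5 settings that estimate this effect.

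A second fit, added after the data were seen, kept the 48 and 96 hour libraries apart and estimated 1 effect of PD0325901 shared by the KH2 and Erk KO pairs, with each cell state as a block. Its 1 residual degree of freedom comes from how far the 2 pairs differ. The spread is also borrowed across genes, to an extent not reported here for this fit. Its small adjusted p-values therefore do not measure how closely the 2 pairs match for a single gene. Its estimate is not that of Erk KO cells alone. The shared fit gave 1178 higher and 704 lower genes of 15103 (7.8% and 4.66%) with edgeR. All 65 genes called in cells without Dox were called there in the same direction. Both fits use the same 6 libraries, so this overlap is a description and not an independent check. Dusp6 (shared log2 fold change −2.05, SE 0.14, adjusted p 3.55e-31), Etv4 (−2.99, SE 0.19, adjusted p 7.52e-33), Myc (−1.35, SE 0.15, adjusted p 1.72e-14), Mmp3 (−2.90, SE 0.25, adjusted p 1.21e-21) and Mmp10 (−2.91, SE 0.28, adjusted p 3.06e-18) all passed in it.

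The difference between the 2 effects, in cells without Dox minus in KH2 cells, gave 0 of 15103 genes in either direction with edgeR, with 129 at an unadjusted p under 0.05, and 0 with DESeq2, with 30. The estimates were −0.88 for Nanog (SE 0.43), −1.64 for Plau (SE 0.58) and −1.32 for Grem1 (SE 0.44), and 1.05 for Dusp6 (SE 0.54) and 1.62 for Etv4 (SE 0.82), each on the log2 scale with an adjusted p of 0.9998. A difference from KH2 cells was therefore not shown for any of these genes, nor was equality.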

How the data were processed

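PolyA RNA was sequenced as single-end reads of 50 bases, 1 library per group, per the labels' protocols. Per the file headers, the authors deposited for each gene the count of uniquely mapped reads, the RPKM and the percent of the gene covered by reads. The submitters' processing notes name mm9 as the build. Aligner and annotation are not given in the sources used here. A gene absent from a file was set to 0 reads. Files were joined by gene ID over 18857 genes, and RefSeq gave symbols for 18805. Among the files that list a gene, its length was not identical for 41 genes, 10 of them within the Erk KO pair. Reads of near-identical gene copies are uncertain under unique mapping (Ly6a, MHC class I and Psg28, for example), and strands are not separated. Promoters came from RefSeq (GRCm38.p6), without mm9 coordinates.

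The size rule used a pseudocount of 0.5 RPKM, an RPKM of at least 1, at least 20 reads, a 2-fold limit and exact 95% Clopper-Pearson intervals. Counts of 0 were kept as 0, with the pseudocount added to each RPKM in the log2 ratio. Intervals cover counting error only, since reads carried no molecular identifiers. The 6-library tests used edgeR 4.0.16 with TMM, at least 20 reads and a threshold of 0.05; in the fit for cells without Dox the median prior degrees of freedom were 12.2 and the common dispersion 0.0462, so the spread was mostly borrowed across genes. DESeq2 1.42.0 was the other tool. Both rules were tested on simulated data.

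Named genes were the 30 highest and 30 lowest log2 ratios among passing genes with at least 50 reads and a proper symbol, passing members of 55 gene lists and a preset group of pathway genes; list members that did not pass complete a family. Nos2, Crabp1, Soga3, Itga2, Cd248, Itga11, Stmn4, Manba, Slc7a7 and Zfp423 entered by rank. Dhrs9, Psg28 and Sprr2h were named after their values were seen, to complete a count. The comparison, members and lists were chosen with earlier results of these data known. A few genes named by this rule are not reported here.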

Additional observations from a re-analysis of the deposited data

How the results depend on the processing

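The counts of 160 higher and 70 lower genes depended mainly on the limits and on the untreated library chosen. With a pseudocount of 0.1 RPKM 112 genes were lower, with 1 RPKM 44, and with at least 100 reads 35. A 1.5-fold limit gave 441 higher and 216 lower genes and a 3-fold limit 60 and 23. With the untreated 48 hour library as reference 707 were higher, the share of higher among called genes was 89.5% in place of 69.6%, and the median of all genes shifted to 0.096. Against that library the log2 ratios of Igf2 (−0.14), Nefm (0.52), Robo4 (0.0886) and Pou3f1 (0.25) changed sign, and 82 of the 143 named genes moved beyond their counting interval. TMM and median-of-ratios scaling, and totals without fibroblast markers and the 10 most abundant genes, moved no named gene and left the median of all genes within 0.01 of 0.

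The 6-library test gave 119 higher and 25 lower genes with RLE scaling, 134 and 32 without a read filter, 41 and 5 with DESeq2, and 27 and 3 with the 4 libraries of the line alone. The difference between the effects gave 1 lower gene with RLE scaling and 2 without a read filter. The causes were not tested. The labels carry no replicate numbers. A paired fit added after seeing the data, with cell state as a block and an effect shared with KH2 cells, gave 1178 higher and 704 lower genes; it estimates another quantity than the effect in cells without Dox alone. With 1 library per group no replicate could be left out. Low reads limit genes such as Soga3, Mmp12 and Ccl5.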
